A study of Mus musculus with 20 samples.

Results

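Glycolysis splits glucose into pyruvate, gluconeogenesis runs the other way to make glucose from lactate, amino acids and glycerol, and glycogen is the polymer in which the liver stores glucose. The set described here is 34 mouse genes of these routes, chosen by name: sugar entry, the glycolytic enzymes, the enzymes that decide the fate of lactate and pyruvate, the gluconeogenic enzymes, the glycogen enzymes and a pair of transcription factors that act on these genes. They were measured with 58 of the 30146 probes and are 34 of the 21450 genes in the deposited table. Enough counts for a test were present for 51 probes in 33 genes, out of 14122 probes in 10101 genes. The gene without a test was Pfkfb1, whose probes had between 0 and 9 counts in every library.

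The livers came from male Balb-C mice aged 10 to 12 weeks. They received Nafion byproduct 2 (PFESA-BP2, a perfluorinated ether sulfonic acid and a by-product of Nafion manufacture) by gavage on 7 days in a row. Each of 5 groups held 4 mice, given 0, 0.03, 0.3, 3 or 6 mg/kg per day, and all carried no other treatment or allele named in the labels. The protocol gives deionized water as what the controls received, whereas the control titles carry the word DMSO, and which of these applies was not settled. Whole liver RNA was read with TempO-Seq, in which a pair of short oligos that meet on a transcript are joined and counted. Whole liver mixes cell types, so fewer cells of a type and less RNA per cell cannot be told apart. A probe reports on a short stretch of a transcript, so levels are not compared between genes. Near-identical copies of Gapdh, Aldoa, Eno1, Pgk1, Pgam1, Tpi1, Ldha and Pkm could add to their probes, which was not tested.

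In the liver these routes run in both directions in the same cells, and the fed and fasted states switch them through insulin and glucagon. Mlxipl (ChREBP, a transcription factor activated by sugar) acts on glycolytic and fructose genes through paired E boxes, and Foxo1 is a transcription factor that insulin keeps out of the nucleus. The E box core CACGTG was therefore looked for in the 250 bases before each RefSeq transcription start (build GRCm38.p6, both strands, a palindrome and so the same on both). It was present in 1978 of 32851 promoters of that length (6.02%) and in 7 of 49 promoters of the set, in the genes Khk, Ldha, Mlxipl, Pcx, Pdk2, Pfkfb3 and Ppp1r3c. Of the 8 genes whose main probe rose at 6 mg/kg, 2 held it, as did 5 of the 21 genes with a promoter entry that did not pass the test. A match is a description of the letters only. The Foxo core GTAAACA, searched on both strands and held by 3.17% of all promoters, was in 0 of the 49. The cAMP response element TGACGTCA, in 1.55% of all promoters, was in the promoter of Ldha alone.

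Promoters of 4 genes that rose at 6 mg/kg are printed here because they differ in the E box core, which stands in capitals where present. Khk (chr5:30921309-30921558, plus strand) has it 71 bases before its RefSeq start. Mlxipl has 2 RefSeq starts, and the stretch printed (chr5:135089640-135089889, plus strand) was chosen because it holds the core, 98 bases before its start. The stretch before the other Mlxipl start does not hold it. Gbe1 (chr16:70313699-70313948, plus strand) and Gpi1 (chr7:34230337-34230586, minus strand) have none. GENCODE M21 starts Khk at 30921431, inside the printed stretch, so its E box core lies within the gene by that annotation, while for the other 3 genes the stretch ends at the GENCODE start. All are given 5′ to 3′ on the strand of the gene.
Khk: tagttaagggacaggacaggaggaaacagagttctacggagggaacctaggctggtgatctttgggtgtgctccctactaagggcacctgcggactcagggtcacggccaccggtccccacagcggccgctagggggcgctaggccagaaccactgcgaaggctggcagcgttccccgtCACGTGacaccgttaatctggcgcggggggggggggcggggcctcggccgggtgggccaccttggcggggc
Mlxipl: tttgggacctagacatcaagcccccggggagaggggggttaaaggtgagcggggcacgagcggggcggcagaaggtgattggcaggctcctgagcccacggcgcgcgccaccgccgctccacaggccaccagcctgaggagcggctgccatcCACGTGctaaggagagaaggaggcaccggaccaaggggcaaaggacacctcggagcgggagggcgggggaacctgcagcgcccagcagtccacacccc
Gbe1: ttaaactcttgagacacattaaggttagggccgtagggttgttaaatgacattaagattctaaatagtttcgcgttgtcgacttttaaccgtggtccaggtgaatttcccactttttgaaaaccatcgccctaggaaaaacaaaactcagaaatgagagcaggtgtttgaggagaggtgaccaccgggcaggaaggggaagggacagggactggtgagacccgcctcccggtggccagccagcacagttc
Gpi1: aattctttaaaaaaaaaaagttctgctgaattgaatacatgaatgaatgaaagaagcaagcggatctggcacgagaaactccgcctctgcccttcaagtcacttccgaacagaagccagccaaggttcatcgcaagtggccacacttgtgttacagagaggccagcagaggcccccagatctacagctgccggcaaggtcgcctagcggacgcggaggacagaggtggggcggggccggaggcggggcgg

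Libraries held 6823518 to 10310931 counts, so 3 counts corresponded to 0.251 to 0.511 counts per 1000000 (CPM), and the member probes took 0.440% to 0.741% of the counts. Replicate 4 at 3 mg/kg and replicate 4 at 6 mg/kg stood apart, with a mean correlation to their own group of 0.892 and 0.949 against 0.954 to 0.989 in the other 18 libraries. The titles give plate wells: the control, 0.03 mg/kg and 0.3 mg/kg replicates 1 to 3 were in row A, and replicate 4 at 0.3 mg/kg with all livers at 3 and 6 mg/kg in row B. The comparison of 6 with 3 mg/kg therefore lies wholly in row B, while for 3 or 6 mg/kg against control the row and the dose cannot be told apart within a row. Replicate 4 at 0.3 mg/kg is the row B library with a dose below 3 mg/kg. Its values for member probes that passed at 6 mg/kg stand beside the results or together after them, and are not given for genes outside the set. Hepatocyte markers were read in all libraries, with 9 of 10 tested and a summed level of 26915 to 34208 CPM in controls, whereas the muscle markers Ckm, Myh4, Tnnt3 and Pvalb stayed below 1 CPM.

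At 6 mg/kg, 11 of 51 member probes were higher and 3 were lower than control at an adjusted p under 0.05 (edgeR's quasi-likelihood test, Benjamini-Hochberg over all 14122 probes). That is 27.5% of the member probes, beside 20.3% of all probes, of which 11.6% were higher and 8.73% lower. By the main probe of each gene, the probe with the highest mean count, 8 of 33 genes rose and 2 fell, beside 20.5% of all genes (10.9% higher, 9.64% lower). The median log2 change of the member probes was 0.17 and that of all probes 0.01. Groups did not overlap for 13 member probes that were higher and 5 that were lower, beside 26.8% of all probes (13.2% higher, 13.6% lower). The share called was near the background, and the paragraphs on each role say which genes it holds.

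At 3 mg/kg 1 of 51 member probes passed, a lower one (1.49% of all probes, 0.382% lower), and at 0.03 and 0.3 mg/kg edgeR called 0 of 51 (0% of all probes). At an unadjusted p under 0.05 there were 2 member probes at 0.03 mg/kg (3.24% of all probes), 2 at 0.3 mg/kg (8.32%) and 11 at 3 mg/kg (12.2%). DESeq2 also called 0 member probes at 0.03 mg/kg (0.0142% of all probes) and at 0.3 mg/kg (0.198%). With limma-voom it was 0 at both doses (0% of all probes). Between 6 and 3 mg/kg 3 member probes were higher and 1 lower (6.73% of all probes, 3.96% higher and 2.77% lower). Along the rank of dose, 12 rose and 4 fell (18.0% of all probes, 11.3% rising and 6.72% falling), with slopes given per dose step.

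Leaving out replicate 4 at 3 mg/kg and at 6 mg/kg raised the member probes called at 6 mg/kg from 14 to 22 (17 higher, 5 lower), beside 27.8% of all probes. Those called between 6 and 3 mg/kg went from 4 to 16, beside 17.4%, and those at 3 mg/kg from 1 to 3, beside 2.66%. With plate row added to the model as a covariate, 0 member probes passed at 6 mg/kg (3.60% of all probes), 13 of the 51 had an unadjusted p under 0.05 (20.7% of all probes), and all 14 kept their sign. The median size of those 14 changes was 0.84 without and 0.83 with the row term, and their median SE rose from 0.17 to 0.34. In that fit the row is told from the dose by the 0.3 mg/kg group alone.

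**Figure D1:**
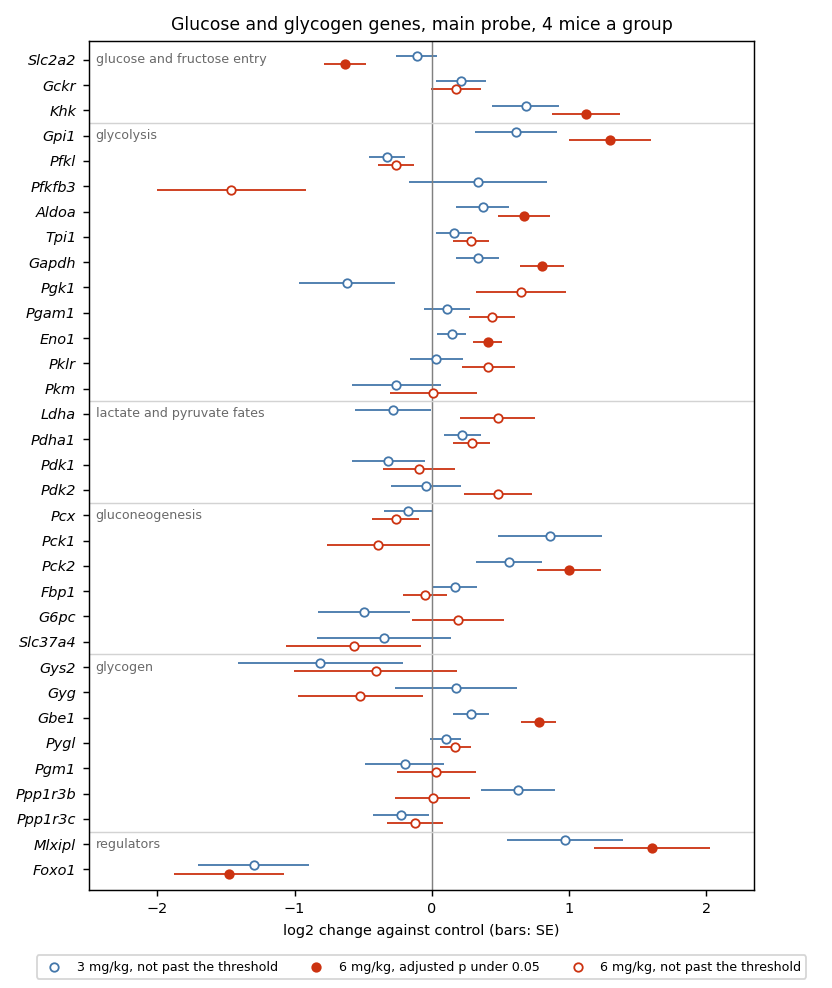
Horizontal axis, log2 change against control at 3 mg/kg (blue) and 6 mg/kg (red) for the main probe of the 33 tested genes, 4 mice a group, bars 1 SE. Filled points passed an adjusted p of 0.05: 8 genes to the right and 2 to the left at 6 mg/kg, and 0 at 3 mg/kg.

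Sugar entry moved in opposite directions at its transporter and at the fructose enzyme. Khk, ketohexokinase, which commits fructose to breakdown, rose at 6 mg/kg to 2.18 times control, and Slc2a2, the GLUT2 transporter of hepatocytes, fell to 0.645 times. Gckr, the protein that holds glucokinase in the nucleus, did not pass. In this and the following accounts values are CPM in replicates 1 to 4 of a group, in that order.

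Khk read 83.7, 95.4, 90.6 and 73.4 CPM in controls and 181, 153, 147 and 267 CPM at 6 mg/kg. At 0.03, 0.3 and 3 mg/kg it read 82.8, 99.9, 110.3 and 88.6, then 88.1, 83.8, 89.6 and 91.0, then 90.3, 112, 103 and 245 CPM. The 6 mg/kg livers were all above the controls, and at 3 mg/kg replicate 4 alone reached their range. The log2 change of Khk at 6 mg/kg was 1.12 (SE 0.25, edgeR adjusted p = 0.0028), and 0.92 (adjusted p = 2.95e-06) without the replicates 4 of 3 and 6 mg/kg. Between 6 and 3 mg/kg the change was 0.44 (adjusted p = 0.28), and 0.67 (adjusted p = 0.0011) without them.

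Slc2a2 read 60.7, 79.1, 56.7 and 57.3 CPM in controls and 53.4, 37.5, 40.6 and 32.0 CPM at 6 mg/kg. In the groups between it lay in the control range or close below, at 58.8, 71.0, 68.0 and 54.3, then 57.1, 53.0, 53.6 and 60.7, then 55.1, 61.5, 59.6 and 58.6 CPM. Every 6 mg/kg liver was below every control and every 3 mg/kg liver. The log2 change was -0.63 (SE 0.15, edgeR adjusted p = 0.0054) against control and -0.52 (SE 0.15, adjusted p = 0.042) against 3 mg/kg. The latter did not pass without the replicates 4 (-0.40, adjusted p = 0.059), nor in 10 fits that left out 1 library (0.03 mg/kg replicate 2 or 3, 0.3 mg/kg replicate 1 or 2, 3 mg/kg replicate 1, 2 or 3, or 6 mg/kg replicate 2, 3 or 4), with values of -0.58 to -0.45 and adjusted p of 0.050 to 0.11. The other Slc2a2 probe, at 1.43 to 4.76 CPM over all libraries, gave 0.17 (adjusted p = 0.71). Gckr changed by 0.17 (adjusted p = 0.52), and 1 liver at 3 mg/kg, replicate 4, read 213 CPM against 122 to 136 CPM in the others.

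Among the glycolytic enzymes the changes that passed at 6 mg/kg against control were all increases. By their main probe 4 of 11 tested genes rose and 0 fell, beside 10.9% higher and 9.64% lower of all genes. The median log2 change was 0.41. The 4 risers were Gpi1 (glucose 6-phosphate isomerase), Aldoa (an aldolase), Gapdh (glyceraldehyde 3-phosphate dehydrogenase) and Eno1 (an enolase), at 2.46, 1.59, 1.74 and 1.33 times control.

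Gpi1 read 29.8, 29.7, 33.4 and 27.8 CPM in controls and 47.5, 57.9, 57.3 and 134 CPM at 6 mg/kg. It read 32.4, 32.5, 35.6 and 83.7 CPM at 3 mg/kg, and the 8 livers of 0.03 and 0.3 mg/kg lay between 29.6 and 37.3 CPM. The 6 mg/kg livers were above all controls, and replicate 4 was the high liver of both upper doses. The log2 change was 1.30 (SE 0.30, edgeR adjusted p = 0.0045), 0.86 (adjusted p = 2.92e-06) without those libraries and 0.83 (adjusted p = 0.025) without 6 mg/kg replicate 4 alone. A further Gpi1 probe read 11.6, 8.34, 9.37 and 4.86 CPM at 3 mg/kg and 14.4, 18.0, 17.9 and 26.8 CPM at 6 mg/kg, a log2 difference of 1.19 (SE 0.26, adjusted p = 0.0098). Here replicate 4 at 3 mg/kg was the low liver, and without the replicates 4 the difference was 0.80 (adjusted p = 0.019). Against control that probe changed by 0.68 (adjusted p = 0.060), and the lowest of the Gpi1 probes, at 0.20 to 1.44 CPM over all libraries, by -0.08 (adjusted p = 0.93).

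Gapdh had 3 tested probes, and all passed. The main probe read 122, 135, 128 and 112 CPM in controls and 207, 207, 202 and 252 CPM at 6 mg/kg. Livers at 3 mg/kg read 119, 149.7, 135 and 223 CPM, those at 0.03 mg/kg 132, 144, 160.2 and 125, and at 0.3 mg/kg 133, 123, 140.0 and 121 CPM. By the main probe all 6 mg/kg livers exceeded all controls. For the probe with the smallest change the groups overlapped, at 131 to 205 CPM at 6 mg/kg and 112 to 132 CPM in controls. The log2 changes of the 3 probes were 0.80 (SE 0.16, edgeR adjusted p = 0.0013), 0.50 (SE 0.14, adjusted p = 0.017) and 0.89 (SE 0.14, adjusted p = 0.00015). The probe with the smallest change lost its call without control replicate 1 (0.46, adjusted p = 0.051) or 6 mg/kg replicate 2 (0.41, adjusted p = 0.066). Without the replicates 4 the 3 probes also differed between 6 and 3 mg/kg, by 0.62, 0.51 and 0.51.

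Aldoa read 12.1, 11, 14.7 and 11.4 CPM in controls, 13.4, 15.4, 16.9 and 17.9 CPM at 3 mg/kg and 13.1, 24.8, 21.4 and 19.1 CPM at 6 mg/kg. The 0.03 and 0.3 mg/kg livers lay between 9.87 and 14.8 CPM. Replicate 1 at 6 mg/kg lay in the control range, so the groups overlapped. Aldoa changed by 0.67 (SE 0.19, edgeR adjusted p = 0.016), and the call was lost without control replicate 2 (0.62, adjusted p = 0.052) or 6 mg/kg replicate 2 (0.53, adjusted p = 0.067). Eno1 read 152, 152, 163 and 153 CPM in controls and 192, 196, 210.3 and 223 CPM at 6 mg/kg. Livers at 3 mg/kg read 155, 167, 179 and 184 CPM, and at the lower doses 149 to 177 CPM, the highest being the row B liver at 0.3 mg/kg (177 CPM), above all controls and inside the 3 mg/kg range. The 6 mg/kg livers were above those of both groups, with a log2 change of 0.41 (SE 0.11, adjusted p = 0.0095) against control. The other Eno1 probe, at 152 to 198 CPM in controls and 141 to 180 CPM at 6 mg/kg, changed by -0.10 (adjusted p = 0.66). With the probes summed per gene Eno1 did not pass.

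Pgk1, phosphoglycerate kinase, differed between the upper doses. It read 3.87, 4.28, 4.09 and 0.954 CPM at 3 mg/kg and 4.68, 7.43, 7.57 and 11.4 CPM at 6 mg/kg, with 4.62, 6.33, 3.77 and 5.19 CPM in controls. The groups of 3 and 6 mg/kg did not overlap, although those of control and 6 mg/kg did. The difference between 6 and 3 mg/kg was 1.27 (SE 0.34, edgeR adjusted p = 0.029), and 0.70 (adjusted p = 0.062) without the replicates 4. It also missed the threshold without 3 mg/kg replicate 1 or without 6 mg/kg replicate 2, 3 or 4, with differences of 1.0 to 1.35 and adjusted p of 0.051 to 0.11.

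The other glycolytic members did not pass against control. Pfkfb3, which makes the activator fructose 2,6-bisphosphate, read 21.7, 15.3, 12.3 and 3.62 CPM at 3 mg/kg and 6.00, 3.65, 3.31 and 2.20 CPM at 6 mg/kg, with 6.74, 4.50, 20.3 and 9.74 CPM in controls. The change between the upper doses was -1.80 (SE 0.54, edgeR adjusted p = 0.053), and -1.91 (adjusted p = 0.033) without the replicates 4. Pfkl, the liver phosphofructokinase, had a main probe at 31.5 to 35.6 CPM in controls and 26.0 to 31.2 CPM at 6 mg/kg. It changed by -0.26 (adjusted p = 0.15), with groups that did not overlap, and its slope along dose, -0.09 per step (adjusted p = 0.048), lost the call in 15 of the 20 fits without 1 library (adjusted p up to 0.087). Its other probes changed by 0.70 (adjusted p = 0.11) and 0.35 (adjusted p = 0.63).

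Pklr, the liver pyruvate kinase, changed by 0.41 (edgeR adjusted p = 0.13) and did not overlap, at 23.1 to 34.1 CPM in controls and 35.7 to 40.7 CPM at 6 mg/kg. Pgam1 (phosphoglycerate mutase) changed by 0.44 (adjusted p = 0.066), Tpi1 (triose phosphate isomerase) by 0.28 (adjusted p = 0.13) and Pkm (the other pyruvate kinase gene) by 0.01 (adjusted p = 0.99). Without the replicates 4, Pgam1 (0.58), Tpi1 (0.43) and Pklr (0.45) passed at 6 mg/kg.

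**Figure D2:**
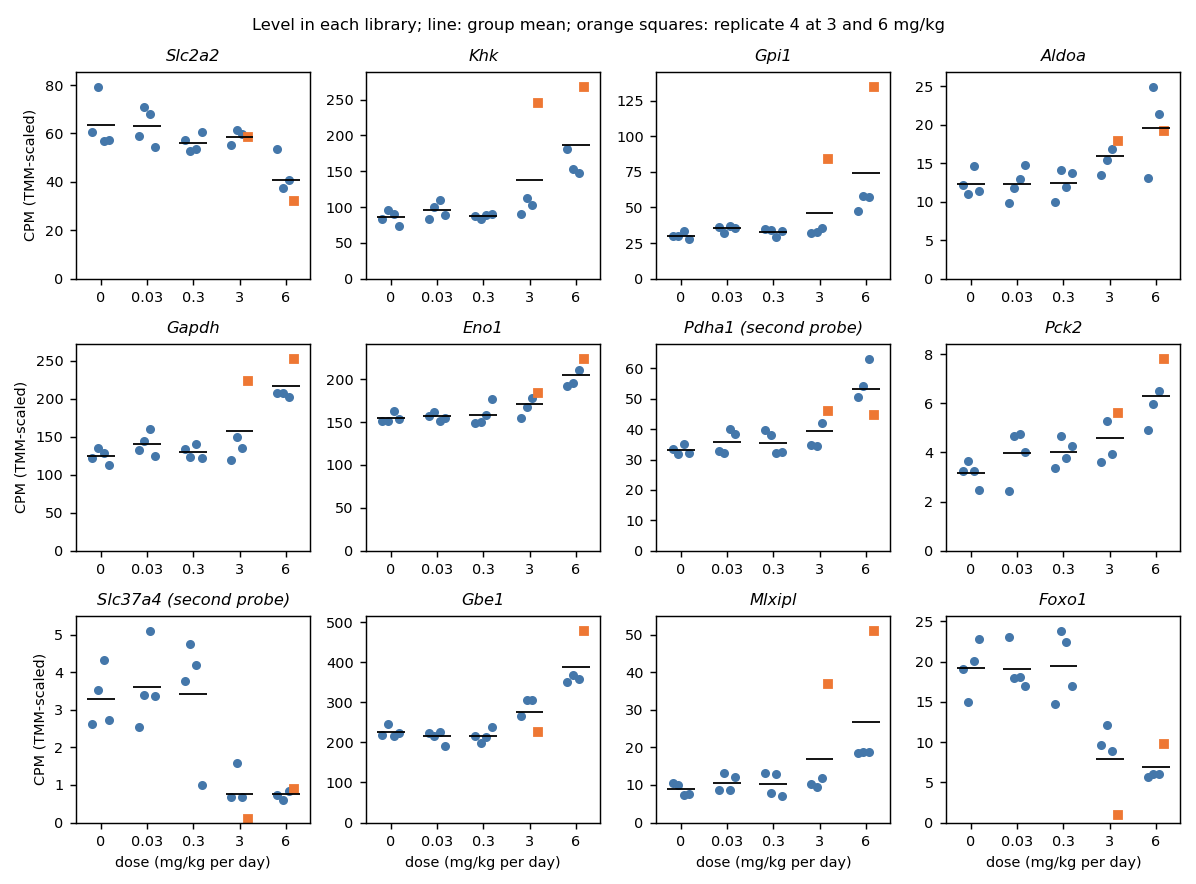
Vertical axes, CPM in each of the 20 libraries, and horizontal axes, dose in mg/kg per day, for 12 genes with a probe that passed at 6 mg/kg; lines are group means and orange squares are replicate 4 at 3 and 6 mg/kg. Khk, Gpi1 and Mlxipl show the square at 3 mg/kg inside or near the 6 mg/kg range while the other 3 livers of that dose lie near the controls.

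The genes of lactate and pyruvate fates did not pass by their main probe at 6 mg/kg (0 of 4, beside 20.5% of all genes). Pdha1, a subunit of the pyruvate dehydrogenase complex that turns pyruvate into acetyl-CoA, passed with its other probe. That probe read 33.3, 31.9, 35.0 and 32.1 CPM in controls, 34.7, 34.4, 41.9 and 46.0 CPM at 3 mg/kg and 50.7, 54.3, 63.1 and 44.8 CPM at 6 mg/kg. The 0.03 and 0.3 mg/kg livers lay between 32.2 and 40.0 CPM, and the 6 mg/kg livers were above all of them. This probe changed by 0.68 (SE 0.14, edgeR adjusted p = 0.0015). The main Pdha1 probe read 149.6, 141, 122 and 140.3 CPM in controls and 172, 179, 189 and 136 CPM at 6 mg/kg, a change of 0.29 (adjusted p = 0.13). Replicate 4 was its low liver at 6 mg/kg, and without the replicates 4 the change was 0.40 (adjusted p = 0.0075).

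Ldha, a lactate dehydrogenase subunit, read 149, 126, 119.9 and 108 CPM in controls, 98.1, 89.9, 83.5 and 141 CPM at 3 mg/kg and 108, 133, 118 and 342 CPM at 6 mg/kg. Replicate 4 was high at both doses, and the change of 0.48 at 6 mg/kg had an edgeR adjusted p of 0.22. The pyruvate dehydrogenase kinases, which switch the complex off, changed by -0.09 for Pdk1 (adjusted p = 0.83) and 0.48 for Pdk2 (adjusted p = 0.17).

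Gluconeogenesis had 1 riser of 6 genes by the main probe at 6 mg/kg and 0 fallers, beside 10.9% higher and 9.64% lower of all genes. Its median log2 change was -0.16. The riser was Pck2, the mitochondrial phosphoenolpyruvate carboxykinase, at 2.00 times control, whereas Pck1, its cytosolic counterpart, did not pass. Slc37a4, which carries glucose 6-phosphate into the endoplasmic reticulum for the last step, was lower by its less abundant probe.

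Pck2 read 3.24, 3.66, 3.23 and 2.47 CPM in controls and 4.92, 5.97, 6.51 and 7.80 CPM at 6 mg/kg. The 3 mg/kg livers read 3.60, 5.30, 3.92 and 5.63 CPM, and at the lower doses 2.44 to 4.76 CPM. All 6 mg/kg livers were above all controls. Pck2 changed by 1.0 on the log2 scale (SE 0.24, edgeR adjusted p = 0.0048). Pck1 read 69.4, 83.6, 217 and 116 CPM in controls, 172, 152, 149 and 409 CPM at 3 mg/kg and 104, 83.1, 87.1 and 97.2 CPM at 6 mg/kg. Its 6 mg/kg livers lay inside the control range and below all 3 mg/kg livers, with a change of -0.39 (adjusted p = 0.49) against control and -1.25 (SE 0.38, adjusted p = 0.055) against 3 mg/kg.

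The less abundant Slc37a4 probe read 2.62, 3.52, 4.31 and 2.73 CPM in controls, 0.692, 1.58, 0.681 and 0.0954 CPM at 3 mg/kg and 0.720, 0.609, 0.828 and 0.90 CPM at 6 mg/kg. At 0.03 mg/kg it read 2.55, 3.38, 5.10 and 3.37 CPM, and at 0.3 mg/kg 3.77, 4.76, 4.19 and 1.01 CPM. The last of these is the row B liver at 0.3 mg/kg, so all 9 row B libraries read 1.58 CPM or less and all 11 row A libraries 2.55 CPM or more. Counts of this probe were low, at 5, 14, 4 and 1 at 3 mg/kg and 6, 5, 7 and 9 at 6 mg/kg. Most of these are near 3 counts, below which changes were not detectable. The log2 change was -2.12 (SE 0.49, edgeR adjusted p = 0.030) at 3 mg/kg and -2.08 (SE 0.48, adjusted p = 0.0045) at 6 mg/kg. With the row term the changes were -0.06 (adjusted p = 0.99) and -0.03 (adjusted p = 0.99), so for this probe row and dose cannot be told apart. The call at 3 mg/kg was also lost without any 1 of the controls or without 3 mg/kg replicate 1, 3 or 4, at -2.19 to -1.67 (adjusted p of 0.053 to 0.10).

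The main Slc37a4 probe read 209.5, 288, 258 and 245 CPM in controls, 249, 254, 272 and 11.8 CPM at 3 mg/kg and 174, 189, 175 and 136 CPM at 6 mg/kg. The 6 mg/kg livers were below all controls, and replicate 4 at 3 mg/kg was far below every other library. The change at 6 mg/kg was -0.57 (SE 0.49, edgeR adjusted p = 0.43), and -0.47 (SE 0.12, adjusted p = 0.0059) without the replicates 4. In that fit it was also lower at 6 than at 3 mg/kg, by -0.51 (adjusted p = 0.0096).

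The remaining gluconeogenic genes did not pass. Pcx (pyruvate carboxylase) changed by -0.26 (edgeR adjusted p = 0.29), Fbp1 (fructose bisphosphatase) by -0.05 (adjusted p = 0.84) and G6pc (the catalytic subunit of glucose 6-phosphatase) by 0.19 (adjusted p = 0.72). G6pc varied within groups, at 62.5 to 114 CPM in controls and 67.3 to 139 CPM at 6 mg/kg.

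For glycogen, 1 of 7 genes rose and 0 fell at 6 mg/kg by the main probe, beside 10.9% higher and 9.64% lower of all genes. The median log2 change was 0.01. The riser was Gbe1, the branching enzyme, at 1.71 times control. Gbe1 read 219, 246, 216 and 224 CPM in controls, 266, 306, 305 and 226 CPM at 3 mg/kg and 349, 368, 357 and 478 CPM at 6 mg/kg. At 0.03 mg/kg it read 224, 217, 227 and 191 CPM and at 0.3 mg/kg 215, 199.5, 212 and 239 CPM. The 6 mg/kg livers were above all other libraries, and at 3 mg/kg replicate 4 alone lay in the control range. The log2 change was 0.78 (SE 0.13, edgeR adjusted p = 0.00027) at 6 mg/kg and 0.49 (SE 0.13, adjusted p = 0.027) between 6 and 3 mg/kg, with both doses in row B. Without the replicates 4 that difference was 0.31 (adjusted p = 0.047), and the change of Gbe1 at 3 mg/kg then passed (0.37, adjusted p = 0.045; with all libraries 0.29, adjusted p = 0.38). The difference between 6 and 3 mg/kg lost its call without 3 mg/kg replicate 1 or without 6 mg/kg replicate 2 or 4, at 0.35 to 0.52 (adjusted p of 0.052 to 0.096).

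Gys2, the liver glycogen synthase, read 189.8, 203, 159 and 159 CPM in controls, 125, 151, 128 and 1.62 CPM at 3 mg/kg and 127, 125, 116 and 167 CPM at 6 mg/kg. Replicate 4 at 3 mg/kg was far below the rest, and replicate 4 at 6 mg/kg was the high liver of its group. The change at 6 mg/kg was -0.41 (SE 0.60, edgeR adjusted p = 0.65), and -0.52 (SE 0.12, adjusted p = 0.0023) without those 2 libraries. Ppp1r3b, which brings a phosphatase to glycogen, read 5.74, 5.07, 9.06 and 7.53 CPM in controls, 13.7, 9.47, 10.4 and 9.16 CPM at 3 mg/kg and 9.37, 6.09, 8.16 and 4.10 CPM at 6 mg/kg. Its 3 mg/kg livers were above the controls, with a change of 0.63 (adjusted p = 0.35), and at 6 mg/kg it changed by 0.01 (adjusted p = 0.99).

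Pygl, the liver glycogen phosphorylase that releases glucose units, changed by 0.17 (edgeR adjusted p = 0.29) with its main probe and -0.07 (adjusted p = 0.76) with the other. Gyg (glycogenin, the primer of glycogen) changed by -0.52 (adjusted p = 0.43) and Ppp1r3c, another glycogen-targeting phosphatase subunit, by -0.12 (adjusted p = 0.71). The probes under the symbol Pgm1, for a phosphoglucomutase, changed by 0.03 (adjusted p = 0.95) and 0.16 (adjusted p = 0.62). Gene tables use that symbol for different phosphoglucomutases, and which of them these probes read was not settled.

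Both regulators passed at 6 mg/kg, in opposite directions: Mlxipl rose to 3.05 times control and Foxo1 fell to 0.359 times. Mlxipl read 10.6, 9.85, 7.22 and 7.53 CPM in controls and 18.5, 18.8, 18.7 and 50.9 CPM at 6 mg/kg. The 3 mg/kg group read 10.2, 9.35, 11.8 and 36.7 CPM, and at the lower doses 7.06 to 13.2 CPM. The 6 mg/kg livers were above all controls, and replicate 4 stood far above the rest at both upper doses. The log2 change of Mlxipl was 1.61 (SE 0.42, edgeR adjusted p = 0.012). It was 1.10 (SE 0.21, adjusted p = 0.00032) without both replicates 4, but the call was lost when 6 mg/kg replicate 4 alone was left out (1.07, adjusted p = 0.072). The other Mlxipl probe changed by 0.98 (adjusted p = 0.080), at 1.82 to 2.39 CPM in controls and 3.08 to 4.70 CPM at 6 mg/kg.

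Foxo1 read 19.1, 14.9, 20.1 and 22.8 CPM in controls and 5.64, 6.09, 6.03 and 9.70 CPM at 6 mg/kg. At 3 mg/kg it read 9.68, 12.2, 8.86 and 0.954 CPM, at 0.03 mg/kg 23.1, 18.0, 18.1 and 16.9, and at 0.3 mg/kg 14.8, 23.8, 22.4 and 16.9 CPM. Livers at 3 and 6 mg/kg were all below the controls, while the row B liver at 0.3 mg/kg, at 16.9 CPM, lay in the control range. The log2 change of Foxo1 was -1.48 (SE 0.40, edgeR adjusted p = 0.014) at 6 mg/kg and -1.30 (SE 0.40, adjusted p = 0.14) at 3 mg/kg. Without the replicates 4 the changes were -1.68 (adjusted p = 5.71e-07) and -0.90 (adjusted p = 0.0058), and the difference between 6 and 3 mg/kg was -0.78 (adjusted p = 0.015).

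The row B liver at 0.3 mg/kg lay in the control range for Khk (91.0 CPM), Slc2a2 (60.7 CPM), Aldoa (13.8 CPM), the main Gapdh probe (121 CPM), the Pdha1 probe that passed (32.5 CPM) and Gbe1 (239 CPM), as for Foxo1. It read above every control for Eno1 (177 CPM), Gpi1 (33.8 CPM) and Pck2 (4.26 CPM), and for the last 2 of these another 0.3 mg/kg liver, in row A, read higher. For Mlxipl it read 7.06 CPM, below every control. For the Gapdh probe that changed by 0.50 it read 122 CPM, in the control range. For the Gapdh probe that changed by 0.89 it read 75.3 CPM, above every control (61.5 to 70.8 CPM), with replicate 2 in row A at 77.2 CPM. Among genes that did not pass at 6 mg/kg it was, by the main probe, above all controls for Pfkfb3 (26.9 CPM) and Ppp1r3b (14.5 CPM). It was below all controls for Pfkl (30.6 CPM, inside the 6 mg/kg range), Gys2 (148 CPM), Gckr (97.9 CPM), Tpi1 (104 CPM) and Pdk1 (13.4 CPM). For Gys2 and Gckr another 0.3 mg/kg liver, in row A, read lower. The part of the plate row in these values was not tested beyond the fit with the row term.

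Along the rank of dose the rising probes were those of Khk (slope 0.28 per dose step on the log2 scale), Gpi1 (0.30), Aldoa (0.17), Gapdh (0.18 and 0.20), Eno1 (0.10), Pdha1 (0.10 and 0.15), Pck2 (0.22), Gbe1 (0.19) and Mlxipl (0.40 and 0.26). The falling probes were those of Slc2a2 (-0.13), Pfkl (-0.09), Slc37a4 (-0.59) and Foxo1 (-0.42). Most of these genes were already described at 6 mg/kg, and Pfkl, the main Pdha1 probe and the other Mlxipl probe passed along dose but not at 6 mg/kg. Those 3 slopes had edgeR adjusted p of 0.048, 0.049 and 0.039, and were lost in 15, 11 and 7 fits without 1 library, with adjusted p up to 0.11. Pfkl kept the call without control replicate 2, 0.03 mg/kg replicate 4, 0.3 mg/kg replicate 2 or 3, or 3 mg/kg replicate 2, and lost it without any 1 of the others. Pdha1 lost it without control replicate 3, any 0.03 mg/kg liver, 0.3 mg/kg replicate 3, 3 mg/kg replicate 2 or 3, or 6 mg/kg replicate 1, 2 or 3. Mlxipl lost it without control replicate 3 or 4, 0.03 mg/kg replicate 1 or 3, or 6 mg/kg replicate 1, 2 or 4. The slope of Slc2a2 was lost without control replicate 2 or 6 mg/kg replicate 2 or 3 (-0.12 each, adjusted p of 0.051 to 0.058).

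**Figure D3:**
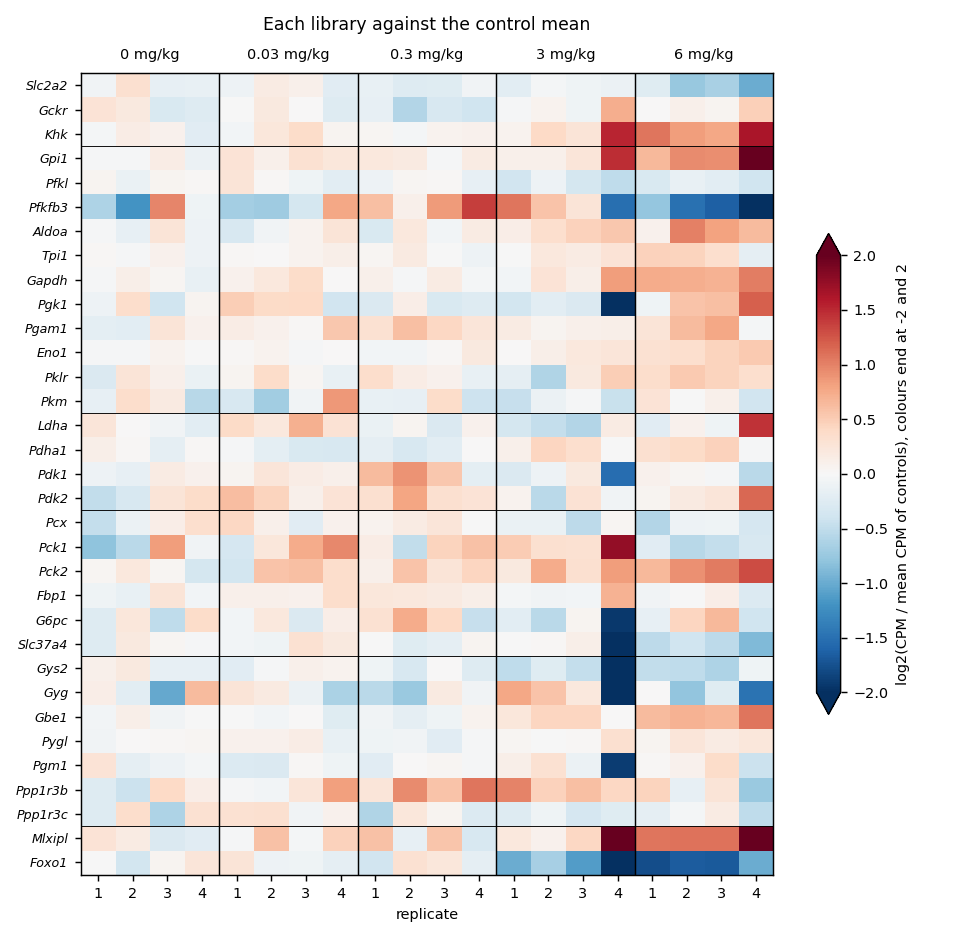
Rows are the 33 tested genes by main probe, ordered by role, and columns the 20 libraries by dose and replicate; colour is log2 of the CPM over the control mean, ending at -2 and 2. Replicate 4 at 3 mg/kg differs from the other 3 livers of its dose, with Gys2 (1.62 CPM) and Slc37a4 (11.8 CPM) as blue cells and Khk (245 CPM) and Mlxipl (36.7 CPM) as red ones.

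Where a gene had more than 1 tested probe, the probes were set side by side. The 15 such genes gave 18 pairs of a main and another probe at 6 mg/kg, of which 12 had the same sign. Both probes passed in 2 pairs (both of Gapdh), the main probe alone in 6 and the other alone in 2 (Pdha1 and Slc37a4). In 0 pairs did both pass in opposite directions. A gene named from 1 probe, such as Eno1 or Slc2a2, is therefore a statement on that probe.

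**Figure D4:**
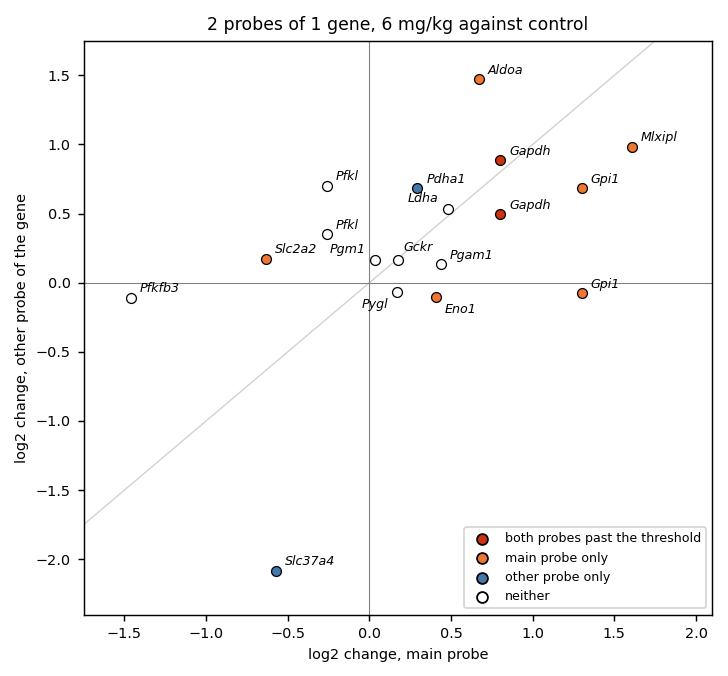
Horizontal axis, log2 change at 6 mg/kg against control of a gene's main probe, and vertical axis, that of another of its probes, for 18 pairs in 15 genes; colour gives which probes passed an adjusted p of 0.05. Points off the grey line of equality include Eno1 (0.41 and -0.10), Slc2a2 (-0.63 and 0.17) and Slc37a4 (-0.57 and -2.08).

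Other genes of the same routes were taken from a list of 118, of which 86 could be tested by their main probe. At 6 mg/kg 13 rose and 5 fell, or 20.9% beside 20.5% of all genes, with a median log2 change of 0.02. The other glycolytic enzymes had 0 called of 11. In the other lists, 4 of 13 lactate and pyruvate genes rose and 0 fell, 4 of 11 sugar entry genes rose and 0 fell, and 2 of 14 glycogen genes rose and 0 fell. Gluconeogenesis had 1 riser and 1 faller of 13, and the regulators 2 risers and 4 fallers of 24. With edgeR 0 of the 86 passed at 3 mg/kg (1.54% of all genes). For these genes too the controls were in row A and the 6 mg/kg livers in row B. The part of the plate row in their changes was not examined.

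Pdk4, a pyruvate dehydrogenase kinase known to rise in fasting, was 2.61 ± 1.32 CPM (SD, n = 4) in controls and 12.8 ± 3.72 CPM at 6 mg/kg, a log2 change of 2.29 (SE 0.52, edgeR adjusted p = 0.0041). Stbd1, a glycogen-binding protein, changed by 1.12 (edgeR adjusted p = 0.016). Its groups overlapped, at 10.6 to 20.2 CPM in controls and 17.1 to 37.1 CPM at 6 mg/kg, and its mean was 28.8 CPM at 3 mg/kg and 30.3 CPM at 6 mg/kg.

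In fructose handling Tkfc, triokinase, which acts after Khk, changed by 1.30 (SE 0.22, edgeR adjusted p = 0.00030), from 72.1 ± 13.9 to 178 ± 50.1 CPM (SD, n = 4). The sugar and urate transporter Slc2a9 changed by 0.91 (adjusted p = 0.025). Among the pyruvate genes Slc16a1, a lactate and pyruvate transporter, changed by 0.58 (adjusted p = 0.013) and Pdp2, a pyruvate dehydrogenase phosphatase, by 0.54 (adjusted p = 0.027). The groups overlapped for Slc16a1, at 118 to 151 CPM in controls and 148 to 238 CPM at 6 mg/kg. Gpt, alanine aminotransferase, changed by 0.61 (adjusted p = 0.024).

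Among the regulators Cebpa, a transcription factor of mature hepatocytes, fell by 1.34 on the log2 scale (SE 0.16, edgeR adjusted p = 6.81e-06), from 914 ± 66.8 to 361 ± 24.3 CPM (SD, n = 4). Ppargc1a, a coactivator of gluconeogenic genes, fell by 1.46 (SE 0.26, adjusted p = 0.00041), and Foxo4, a relative of Foxo1, fell by 0.87 (adjusted p = 0.0048). Cebpb, a relative of Cebpa, rose by 0.92 (adjusted p = 0.0072).

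Some markers of cell division and of liver cell types passed at the same dose, by their main probe. The counts below stand beside 20.5% of all genes called at 6 mg/kg (10.9% higher, 9.64% lower). The part of these markers in the members' changes was not tested. All 6 dividing cell markers rose at 6 mg/kg, with a sum of 9.61 to 13.0 CPM in controls, 35.8 to 84.3 CPM at 3 mg/kg and 107 to 174 CPM at 6 mg/kg. Of 9 hepatocyte markers 1 rose and 3 fell at 6 mg/kg, and their sum was 17740.2 to 22119.9 CPM. Of 11 stellate cell markers 1 rose and 6 fell, with sums of 319 to 367 CPM in controls and 173 to 230 CPM at 6 mg/kg. Of 10 Kupffer cell and macrophage markers 0 rose and 2 fell, with sums of 126 to 184 and 82.9 to 133 CPM, and Timd4 and Marco were below 1 CPM in every library. Endothelial markers had 2 risers of 9, lymphocyte markers 2 fallers of 6 (Cd8a, Cd4 and Ms4a1 below 1 CPM), and neutrophil markers 1 riser of 3 (Mpo, Elane and Csf3r below 1 CPM).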

How the data were processed

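Livers of 20 mice, 5 dose groups of 4, were measured with TempO-Seq. The authors deposited raw counts per probe, whole numbers that were not normalized; alignment with Bowtie and the build GRCm38.p5 are named per the submitters' processing notes, and no source used here gives the rest. Groups and wells came from the labels.

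Counts were scaled by TMM, filtered with edgeR's filterByExpr (14122 probes, holding 99.8% of counts) and tested with its robust quasi-likelihood test on all 20 libraries (edgeR 4.0.16, R 4.3.3), with Benjamini-Hochberg adjustment over all probes and a threshold of 0.05. The trend is the slope over dose rank. SE is the log2 change over the square root of F, and CPM uses TMM-scaled library sizes. The fit was tested on simulated data. Alternatives were other scalings and filters, DESeq2 1.42.0, limma-voom (limma 3.58.1), summed probes, a plate row term, 8 libraries per comparison, and libraries left out. A chi-square test of counts found all 30 same-group pairs to differ beyond counting noise (lowest value per degree of freedom 3.66). Every member is named, with library values where a probe passed; other pathway genes were chosen as the 12 largest changes at 6 mg/kg among those past the threshold with a mean of at least 10 CPM in some group; 1 of them is not reported here. The members and lists were chosen with earlier results of these data known. Promoters are RefSeq's; Gys2 and Ppp1r3b had no entry.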

Additional observations from a re-analysis of the deposited data

Results flagged for a closer look

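A liver was picked out where the highest or lowest of the 4 in a group lay so far from the next that the gap passed Dixon's 95% limit for the group's range. The rule was met in 23 of 195 checks (39 probes in 5 groups), and 9 of the 23 were replicate 4 at 3 mg/kg and 7 replicate 4 at 6 mg/kg. For independent, normally distributed values it would be met in about 1 in 20. CPM of probes that share libraries need not be such values, so the rate to expect here is not known. No explanation was tested.

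In replicate 4 at 3 mg/kg, Gckr read 213 CPM, above 122 to 136 CPM and Khk read 245 CPM, above 90.3 to 112 CPM in the other 3 livers of the group. Gpi1 read 83.7 CPM, above 32.4 to 35.6 CPM and Pgk1 read 0.954 CPM, below 3.87 to 4.28 CPM. Pck1 read 409 CPM, above 149 to 172 CPM and Fbp1 read 1326 CPM, above 783 to 796 CPM. Slc37a4 read 11.8 CPM, below 249 to 272 CPM and Pygl read 1209 CPM, above 957 to 991 CPM. Mlxipl read 36.7 CPM, above 9.35 to 11.8 CPM.

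In replicate 4 at 6 mg/kg, Gpi1 read 134 CPM, above 47.5 to 57.9 CPM and Gapdh read 252 CPM, above 202 to 207 CPM in the other 3 livers of the group. Ldha read 342 CPM, above 108 to 133 CPM and Pdk2 read 23.7 CPM, above 11.2 to 12.7 CPM. Gbe1 read 478 CPM, above 349 to 368 CPM and Mlxipl read 50.9 CPM, above 18.5 to 18.8 CPM. Foxo1 read 9.70 CPM, above 5.64 to 6.09 CPM.

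In the other livers, Pfkl read 31.5 CPM in control replicate 2, below 35.1 to 35.6 CPM and Pfkfb3 read 17.7 CPM in 0.03 mg/kg replicate 4, above 6.27 to 8.09 CPM in the other 3 livers of the group. Pgk1 read 3.80 CPM in 0.03 mg/kg replicate 4, below 6.47 to 6.99 CPM and Pgk1 read 5.48 CPM in 0.3 mg/kg replicate 2, above 4.02 to 4.14 CPM. Eno1 read 163 CPM in control replicate 3, above 152 to 153 CPM and Pdk2 read 18.5 CPM in 0.3 mg/kg replicate 2, above 13.0 to 13.3 CPM. Fbp1 read 1045 CPM in 0.03 mg/kg replicate 4, above 877 to 882 CPM.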

How the results depend on the processing

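No paired analysis was possible because the labels number no replicates, and the numbers here follow accession order. At 0.03 and 0.3 mg/kg 0 member probes were called in every alternative run, beside at most 0.198% of all probes (DESeq2 at 0.3 mg/kg). At 6 mg/kg the count of 14 ran from 12 to 24 when 1 library was left out (24 without 3 mg/kg replicate 4), while the share of all probes called ran from 14.7% to 31.1% (31.1% in the fit with 24). The count was 14 with DESeq2's scaling in edgeR (20.4% of all probes), 17 with total counts (19.2%), 16 with DESeq2 (23.5%) and 14 with limma-voom (18.7%). It was 22 without both replicates 4 (27.8% of all probes) and 0 with the plate row term (3.60%). With that term the median SE of the 14 changes went from 0.17 to 0.34. At 3 mg/kg the count of 1 ran from 0 to 1 with 1 library left out (0.858% to 1.93% of all probes). It was 0 with limma-voom (1.28%), the plate row term (0.00708%) or 8 libraries (0.346%). It was 3 with DESeq2 (2.74%) or without both replicates 4 (2.66%). It was also 0 with at least 10 CPM in 4 libraries (2.04% of all probes) or with summed probes (1.72% of all genes). The first left out the Slc37a4 probe that held the call and the second merged it with the main probe, so neither tested that call. Between 6 and 3 mg/kg the count of 4 ran from 1 to 19 and the share of all probes from 2.09% to 21.6% with 1 library left out. The count was 19 without 3 mg/kg replicate 4, and 1 without 3 mg/kg replicate 1 or 6 mg/kg replicate 2. It was 2 with no low-count filter (2.27% of all probes) and 8 with DESeq2 (10.2%). It was 16 without both replicates 4 (17.4%) and 0 with 8 libraries (0.0847%). The trend's count of 16 ran from 12 to 18 (13.1% to 21% of all probes). It was 10 with summed probes, which are fewer (19.8% of all genes), and 0 with the plate row term (4.27% of all probes). With the row term the slopes of Pdha1 (main probe) and Slc37a4 (less abundant probe) reversed, to -0.0374 and 0.104 per step. Of 35 calls of a probe in a comparison, 0 were kept in every alternative, and 40 further ones passed in some. Causes were not tested.

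With scaling by total counts alone, the median over all probes at 6 mg/kg went from 0.01 to 0.15 (log2) and their calls from 1634 higher and 1233 lower to 1894 and 811. Member calls became 14 higher and 3 lower at 6 mg/kg (19.2% of all probes called), 3 and 0 between 6 and 3 mg/kg (6.15%), and 14 and 2 along dose (18%). Below 3 counts, or 0.251 to 0.511 CPM, changes were not detectable.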
